A study of Mus musculus with 20 samples.

Results

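The endoplasmic reticulum (ER) folding and unfolded protein response genes are 34 genes chosen by name, of 24062 genes counted. They are chaperones, disulfide isomerases, stress sensors and their transcription factors, and the degradation and translocation machinery of the ER. They were chosen with earlier results of these data known. Shares over all genes set beside theirs are therefore not an independent comparison. The 34 genes were read out in the pituitary and in inguinal white adipose tissue (iWAT, the fat pad under the skin of the groin). The tissues came from male C57BL/6N mice kept on chow. The comparison was between mice labelled KLF14 KO, described in the labels as carrying a germline deletion of the zinc finger transcription factor gene Klf14, and mice labelled wt. Each tissue had 5 libraries labelled KO, of which 4 came from mice aged 21 weeks and 1 from a mouse aged 19 weeks. It also had 5 libraries labelled WT, with 2 mice aged 21 weeks, 2 aged 19 weeks and 1 aged 18 weeks. The sources used here do not say which part of Klf14 was deleted or state in words that every library is a separate animal, so each p-value reflects spread among libraries, which may be technical.

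The ER is where secreted and membrane proteins enter the secretory pathway, through the Sec61 channel, and where they are folded by BiP (encoded by Hspa5) and its partners, by lectin chaperones that bind sugars, and by enzymes that form disulfide bonds. When unfolded protein accumulates, the sensors IRE1 (Ern1), PERK (Eif2ak3) and ATF6 start the unfolded protein response, in which XBP1, ATF4 and cleaved ATF6 switch on chaperone and degradation genes. The anterior pituitary, which secretes growth hormone, prolactin and other peptide hormones, relies heavily on this machinery, while fat cells use it for secreted proteins such as adiponectin and leptin.

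Many genes of this response carry an ER stress response element (ERSE) in their promoters, a CCAAT box and a CCACG half-site separated by 9 bases, which NF-Y and ATF6 or XBP1 bind. Promoter windows from RefSeq (GRCm38.p6, 250 bases before to 50 bases after the start site) matched 27 of the 34 members. The motif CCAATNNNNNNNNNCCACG, searched on both strands, was present in 9 of the 27 members' windows (33.3%) and in 37 of the 27025 genes with a window (0.137%). The related ERSE-II, ATTGGNCCACG, was present in 2 members (7.41%, against 0.0444% of genes), Dnajb11 and Herpud1. The XBP1 element TGACGTGG was in 0 members (0.714% of genes). The ATF4 element TGATGCAA was in 1 member, Herpud1 (3.7%, against 1.03% of genes). The ERSE and ERSE-II both end in CCACG, and no match overlapped another in the members' windows. A match describes these letters only and does not show that a factor binds there. These elements are known as those of this response, and the members were chosen by name for it. The shares over all genes are therefore not an independent comparison here.

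The windows of 4 members are printed because they carry the elements of the chaperones described below and of the degradation factor with both ERSE-II and an ATF4 element; capitals mark the matched motif, and each is read 5′ to 3′ along its gene. On GRCm38.p6 the window of Hspa5 lies at chr2:34771840-34772139 on the plus strand, that of Hsp90b1 at chr10:86705395-86705694 on the minus strand, that of Creld2 at chr15:88819396-88819695 on the plus strand and that of Herpud1 at chr8:94386179-94386478 on the plus strand.
Hspa5: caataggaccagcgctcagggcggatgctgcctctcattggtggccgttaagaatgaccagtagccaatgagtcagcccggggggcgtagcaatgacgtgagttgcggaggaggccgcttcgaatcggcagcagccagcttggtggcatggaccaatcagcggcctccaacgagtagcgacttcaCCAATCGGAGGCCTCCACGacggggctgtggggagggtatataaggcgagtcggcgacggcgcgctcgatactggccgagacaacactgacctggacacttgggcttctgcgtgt
Hsp90b1: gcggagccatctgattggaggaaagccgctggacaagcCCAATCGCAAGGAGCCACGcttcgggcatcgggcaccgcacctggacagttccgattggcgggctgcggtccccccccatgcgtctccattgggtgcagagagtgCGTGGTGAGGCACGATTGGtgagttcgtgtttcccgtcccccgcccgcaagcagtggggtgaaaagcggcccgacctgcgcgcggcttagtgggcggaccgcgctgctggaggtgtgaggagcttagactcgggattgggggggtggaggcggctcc
Creld2: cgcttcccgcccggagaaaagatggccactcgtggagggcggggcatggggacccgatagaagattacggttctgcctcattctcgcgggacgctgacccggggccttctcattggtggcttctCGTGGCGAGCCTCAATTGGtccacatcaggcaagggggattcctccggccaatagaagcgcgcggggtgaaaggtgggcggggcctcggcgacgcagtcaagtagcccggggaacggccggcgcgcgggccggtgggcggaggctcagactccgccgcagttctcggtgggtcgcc
Herpud1: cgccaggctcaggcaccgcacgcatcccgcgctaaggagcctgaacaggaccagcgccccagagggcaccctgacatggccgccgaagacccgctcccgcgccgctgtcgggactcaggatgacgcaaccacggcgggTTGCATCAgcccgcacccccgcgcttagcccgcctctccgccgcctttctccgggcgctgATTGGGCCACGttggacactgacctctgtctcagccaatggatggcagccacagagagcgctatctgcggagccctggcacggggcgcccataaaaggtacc

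Hsp90b1 had 2 ERSE matches, on opposite strands, and the match of Creld2 lies on the strand opposite to the gene, so that CGTGG comes first in its window. The sites of the other members are printed alone, read along the motif, with the 2 parts of the element in capitals and the spacer in lower case, because the values of these genes are set beside them below. They lie at chr12:17266491-17266509 (Pdia6), chr8:84847075-84847093 (Calr), chr11:50325800-50325818 (Canx), chr14:118937827-118937845 (Dnajc3), chr19:6046532-6046550 (Syvn1), chr10:75893242-75893260 (Derl3) and chr16:22857852-22857862 (Dnajb11, ERSE-II). Calr and Canx are on the minus strand and the other 5 genes on the plus strand, and the motif is on the gene's own strand in all but Calr and Derl3.
Pdia6: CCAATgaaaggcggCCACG
Calr: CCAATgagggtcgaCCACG
Canx: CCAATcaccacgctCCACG
Dnajc3: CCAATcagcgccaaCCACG
Syvn1: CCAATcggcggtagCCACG
Derl3: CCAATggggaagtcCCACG
Dnajb11: ATTGGcCCACG

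The libraries held 13591695 to 17598504 counts in the pituitary and 14799718 to 18689881 counts in iWAT, of which the members took 0.683% to 0.749% in the pituitary and 0.365% to 0.436% in iWAT. All 34 members passed the filter on low counts in every fit, with between 48 counts for a member in a library and 14988. Anterior pituitary hormone genes summed to at least 103515 CPM (counts divided by the TMM-scaled library size, so that libraries are comparable) in every pituitary library, and fat cell markers to at least 5377 CPM in every iWAT library. Adipoq and Lep, defining markers of fat cells, were at 0 in all 5 WT pituitary libraries. The iWAT library of KO mouse 32 held 119 CPM of the hormone genes, against at most 1.76 CPM in WT iWAT libraries, and the part of this RNA in the members' values was not tested. Klf14 itself went against the labels in the pituitary: it had 38.0, 34.5, 32.5, 31.6 and 30.2 CPM in libraries labelled KO, against 18.8, 13.9, 16.0, 17.4 and 17.2 CPM in libraries labelled WT (log2 fold change 1.004, SE 0.086, edgeR quasi-likelihood test with Benjamini-Hochberg adjustment, adjusted p = 7.64e-05). The fold was alike but not called in mice of 21 weeks (1.04, edgeR adjusted p = 0.0627) and in 1 fit over all 20 libraries (edgeR adjusted p = 1). Every direction below is therefore that of the libraries labelled KO, whose Klf14 counts were higher. In iWAT Klf14 was at 0.467 to 2.66 CPM in libraries labelled KO and 0.0587 to 3.003 CPM in libraries labelled WT, and was not called (log2 fold change 0.76, adjusted p = 0.99995).

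In the pituitary, 1 of the 34 members passed an adjusted p of 0.05 between libraries labelled KO and WT, the calcium-binding ER protein gene Rcn1, which was 1.503-fold higher in libraries labelled KO. No member was called lower. Over all 16389 genes tested, 0.415% were called higher and 0.134% lower. The members' median log2 fold change was 0.03 and 22 of the 34 were positive, against a median of 0.00363 and 51.2% positive over all genes tested. Without the WT library of mouse 56 the members' median was -6.8e-05 with 17 of 34 positive. The chaperone genes Hsp90b1 and Hspa5 had smaller positive values that did not pass, and the stress sensors, degradation and translocation genes lay around 0.

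**Figure D1:**
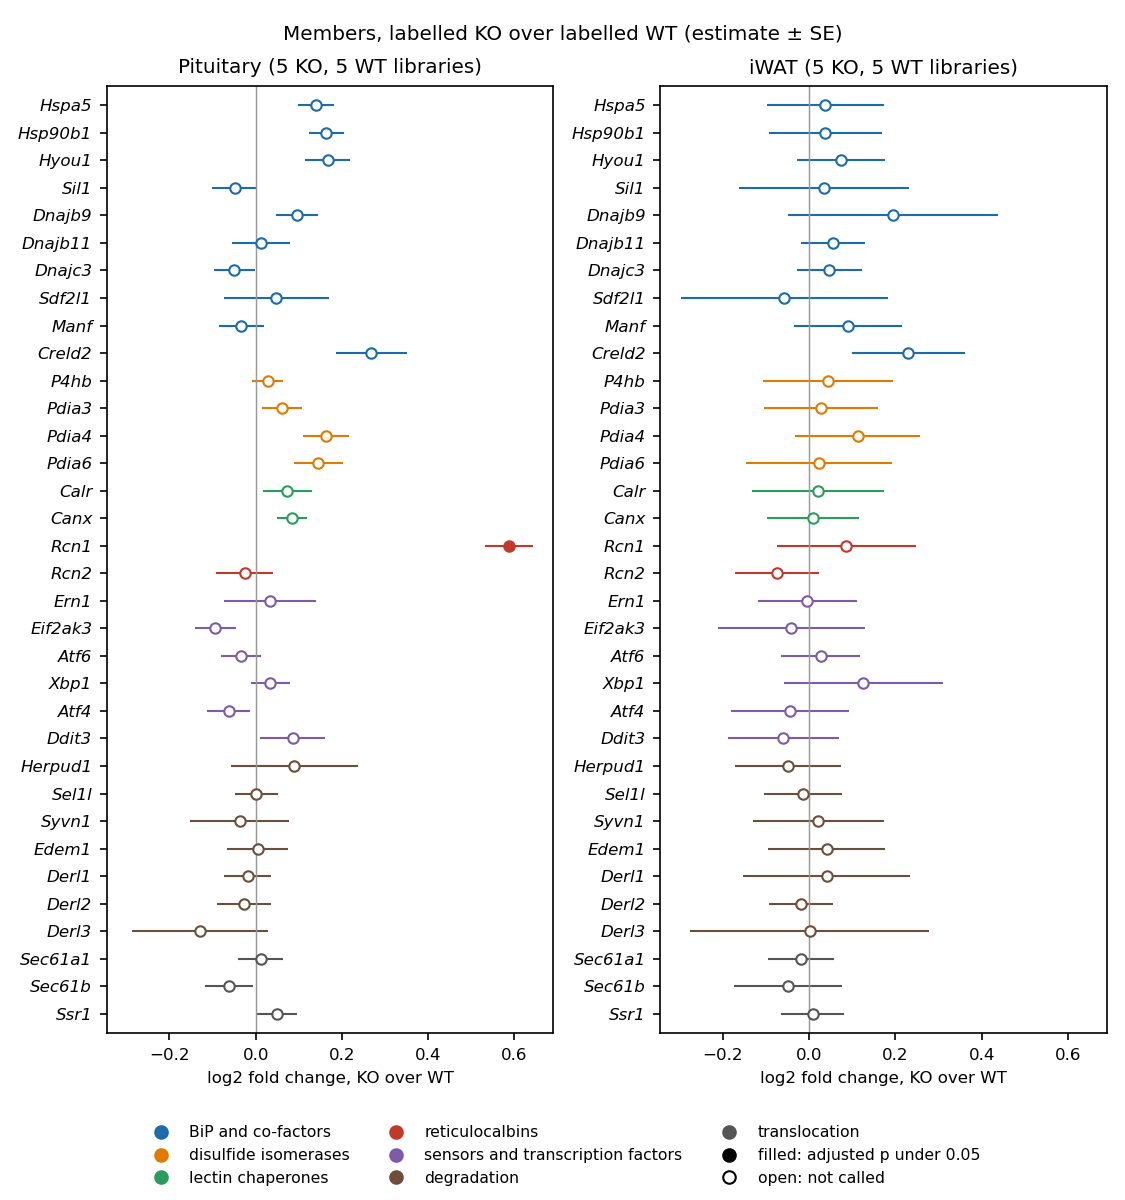
Log2 fold change (x axis, libraries labelled KO over libraries labelled WT) of each member (rows, coloured by role) in the pituitary on the left and iWAT on the right. Points are estimates and bars are ± 1 SE from edgeR, with 5 libraries in each group. Rcn1 in the pituitary, at 0.59, is the single filled point, and the bars are wider in iWAT.

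Rcn1 encodes reticulocalbin-1, a calcium-binding protein with EF hands that resides in the ER lumen (mm10 chr2:105385948-105399319, minus strand). It had 108, 118, 119, 104 and 107 CPM in the 5 pituitary libraries labelled KO, against 76.0, 74.7, 67.9, 80.4 and 71.6 CPM in the 5 labelled WT. Every library labelled KO lay above every library labelled WT, and the lowest of the first, 104 CPM, was well clear of the highest of the second, 80.4 CPM. The means were 111.3 ± 6.92 CPM in libraries labelled KO and 74.1 ± 4.69 CPM in libraries labelled WT (SD, n = 5 each). The log2 fold change was 0.59 (SE 0.056, edgeR adjusted p = 0.000204), with a p that ranked 3 among all genes tested. Rcn1 was the single member whose groups did not overlap, a pattern that 1.75% of all genes showed with KO higher and 1.09% with KO lower. It kept a log2 fold change between 0.55 and 0.62 in the alternatives tried and passed in all of them but the fit over all 20 libraries, where its adjusted p was 0.372.

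Rcn2, which encodes the related reticulocalbin-2, had 79.5, 90.7, 92.0, 77.7 and 93.7 CPM in pituitary libraries labelled KO, against 82.6, 96.5, 89.7, 92.1 and 80.6 CPM in those labelled WT. Its groups overlapped over most of their range (log2 fold change -0.03, 95% interval -0.16 to 0.10, edgeR adjusted p = 0.924). Rcn3, the third reticulocalbin and not a member, had a log2 fold change of 0.20 (SE 0.056, edgeR adjusted p = 0.145). The intervals of Rcn1 (0.48 to 0.70) and Rcn2 therefore did not meet, though the difference between the 2 genes was not tested.

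Markers of the intermediate lobe of the pituitary leaned higher with the KO label, with overlap. Their summed level was 635, 765, 524, 609 and 664 CPM in libraries labelled KO, against 542, 483, 535, 441 and 363 CPM in libraries labelled WT. The sum in the KO library of mouse 35 lay below those in the WT libraries of mice 33 and 48. Of these markers 4 of 4 had positive log2 fold changes, with 0 called. Macrophage markers were positive in 11 of 11 with 0 called. Their summed level was 94.9 to 276 CPM in libraries labelled KO, highest in mouse 50, against 99.5 to 119 CPM in libraries labelled WT. Blood markers were positive in 5 of 5 and posterior lobe markers in 5 of 6, with 0 called. Anterior pituitary hormone genes (4 of 7 positive) and endothelial markers (2 of 5) were split, also with 0 called. With the intermediate lobe score as a covariate Rcn1 had a log2 fold change of 0.60 (edgeR adjusted p = 0.019), and with the macrophage score 0.62 (edgeR adjusted p = 0.000166). Both scores were chosen after the data were seen. Over all genes 90 were called in the main fit, 8 with the intermediate lobe score and 113 with the macrophage score. The part of these cells in the result was not tested. In whole tissue, a change in RNA per cell and a change in the number of cells of a type cannot be told apart.

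The BiP group, Hspa5 and the genes that act with it or are induced beside it, had 10 members. In the pituitary 0 were called, 7 had positive log2 fold changes and the median was 0.07. Hsp90b1 encodes the ER paralogue of the cytosolic chaperone HSP90. It had 838, 802, 804, 761 and 784 CPM in libraries labelled KO, against 769.9, 698, 694, 718 and 683 CPM in those labelled WT. Only the WT library of mouse 33, the highest of its group, lay above the lowest library labelled KO, so the groups overlapped by 1 library. The log2 fold change was 0.16 (SE 0.041, edgeR adjusted p = 0.102). DESeq2 (adjusted p = 0.0159) and limma voom (adjusted p = 0.0358) called it together with Rcn1, 2 members each, in tests that called 1.76% and 0.775% of all genes. Without the WT library of mouse 33 edgeR called it too (adjusted p = 0.0436).

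Hspa5 encodes BiP, the HSP70 of the ER and its main folding chaperone. It had 839.7, 825, 865, 781 and 811 CPM in pituitary libraries labelled KO, against 786, 711, 789.9, 744 and 711 CPM in those labelled WT. The 2 highest WT libraries, of mice 33 and 48, exceeded the lowest KO library, of mouse 50 (log2 fold change 0.14, SE 0.042, edgeR adjusted p = 0.193). Hyou1 encodes a nucleotide exchange factor of BiP. It had 375, 373, 334, 419 and 375 CPM in libraries labelled KO, against 336, 326, 351, 340.3 and 318 CPM in those labelled WT, and the KO library of mouse 50 was highest (log2 fold change 0.17, SE 0.053, edgeR adjusted p = 0.211). The KO library of mouse 35 lay below 3 of the WT libraries.

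Creld2 encodes a small ER protein that is induced by ER stress. It had 31.8, 34.3, 36.1, 30.6 and 33.1 CPM in libraries labelled KO, against 31.3, 29.1, 28.7, 22.5 and 26.0 CPM in those labelled WT. The groups overlapped at 1 WT library, that of mouse 33 (log2 fold change 0.27, SE 0.082, edgeR adjusted p = 0.203). The other members of the group did not pass either. Dnajb9 and Dnajb11, DNAJ co-chaperones of BiP, had log2 fold changes of 0.10 and 0.01. Dnajc3, a co-chaperone that also restrains PERK, had -0.05, and Sil1, the other exchange factor of BiP, -0.05. Sdf2l1, which partners Dnajb11, had 0.05, and Manf, a secreted and ER-resident neurotrophic factor, -0.03.

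**Figure D2:**
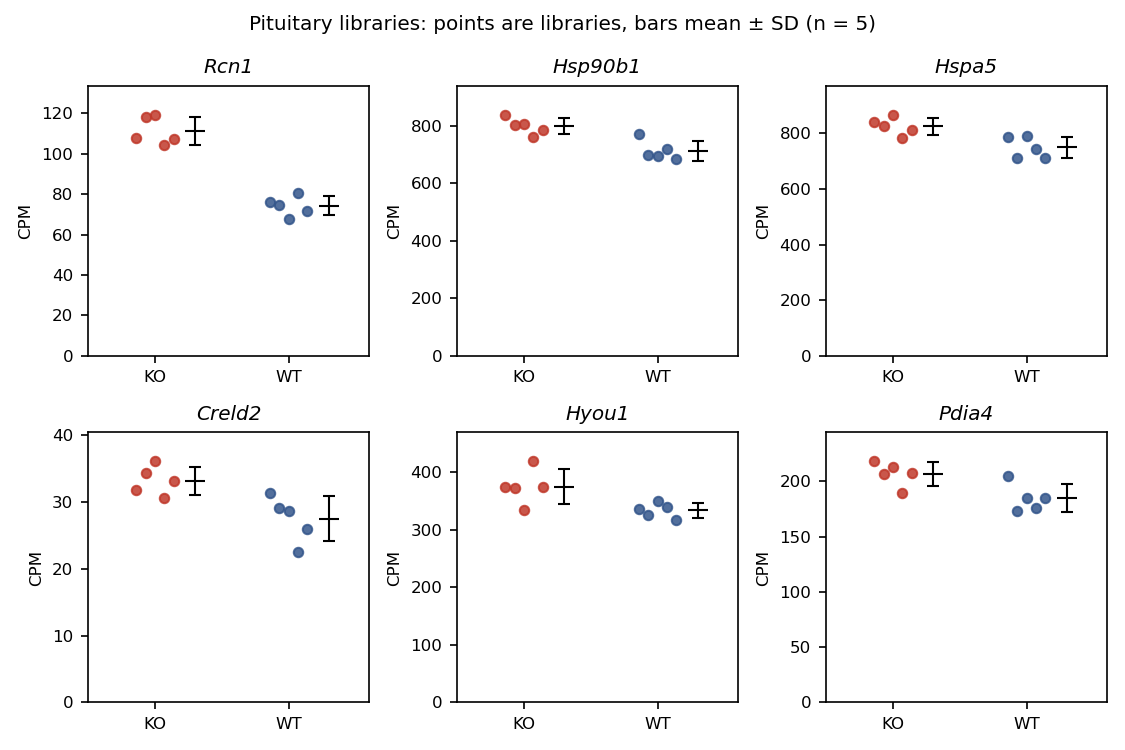
TMM-scaled counts, in CPM (y axis, linear from 0) of the 6 members with the smallest p in the pituitary, in libraries labelled KO on the left of each panel and libraries labelled WT on the right. Points are libraries and bars are the mean ± SD of 5. The groups are apart for Rcn1 (104 to 119 against 67.9 to 80.4 CPM) and overlap in the other 5 panels.

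The 4 disulfide isomerases, which form and reshuffle disulfide bonds, all had positive log2 fold changes in the pituitary, with 0 called. Pdia4 had 218, 207, 212, 189 and 208 CPM in libraries labelled KO, against 205, 173, 185, 176 and 185 CPM in those labelled WT (log2 fold change 0.16, SE 0.052, edgeR adjusted p = 0.220). The WT library of mouse 33 was again the highest of its group and lay within the KO range. Pdia6 had a log2 fold change of 0.15, Pdia3 of 0.06 and P4hb, the founding protein disulfide isomerase, of 0.03. Some bases of the exons of Pdia4 (14 bases, with Mir704) and Pdia6 (50 bases, with Atp6v1c2) also belong to another gene, so reads there are uncertain. The lectin chaperones calreticulin (Calr) and calnexin (Canx), which hold glycoproteins during folding, had 0.07 and 0.08.

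Among the 6 sensors and transcription factors 0 were called and 3 were positive, with log2 fold changes between -0.09 (Eif2ak3) and 0.09 (Ddit3, which encodes the pro-apoptotic factor CHOP). The exons of Ddit3 share 68 bases, 7.81% of their length, with Mars, so its counts are uncertain. Ern1, Xbp1, Atf6 and Atf4 had 0.03, 0.03, -0.03 and -0.06. Among the 7 degradation genes 0 were called and 3 were positive. Herpud1, which helps assemble the ubiquitin ligase complex of ER-associated degradation, varied most of all members between pituitary libraries labelled KO. It had 138, 172, 243, 181 and 147 CPM in libraries labelled KO, against 160.3, 198, 148, 166 and 156 CPM in those labelled WT, and the KO library of mouse 35 stood highest (coefficient of variation 23.4% in libraries labelled KO). The 3 translocation genes Sec61a1, Sec61b and Ssr1 had log2 fold changes of 0.01, -0.06 and 0.05.

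At an unadjusted p under 0.05, 8 members counted in the pituitary (Rcn1, Hsp90b1, Hspa5, Creld2, Hyou1, Pdia4, Pdia6 and Canx), and 10.9% of all genes tested did. All 8 were higher in libraries labelled KO. Over all genes under that p, 1024 were higher and 768 lower. Of the 9 members with an ERSE match 5 were among these 8 (Hspa5, Hsp90b1, Creld2, Pdia6 and Canx), as were 0 of the 2 with ERSE-II, 1 of the 16 with a window but neither element (Pdia4) and 2 of the 7 with no window (Rcn1 and Hyou1). The median log2 fold change was 0.08 for the 9 with an ERSE and 0.03 for the 16 with neither element. Dnajc3, Syvn1 and Derl3, which also have an ERSE, had -0.05, -0.04 and -0.13. In iWAT 0 members of any of these classes were under an unadjusted p of 0.05, and 0.553% of all genes were. There 9 of the 9 with an ERSE had positive log2 fold changes (median 0.02), and 7 of the 16 with neither element did (median -0.009). Of the 7 with no window 6 were positive (median 0.04). Between WT pituitary and WT iWAT the medians stood in the other order, 0.72 for the 9 with an ERSE (7 called higher) and 0.85 for the 16 with neither element (13 called higher). No test was made of these counts.

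In iWAT, 0 of the 34 members passed between libraries labelled KO and WT, as did 0% of the 16105 genes tested, and 0 members were called by DESeq2 or limma voom. At an unadjusted p under 0.05 there were 0 members and 0.553% of all genes. No member had groups that did not overlap, which 0.0497% of genes had with KO higher and 0.031% with KO lower. The members' median log2 fold change was 0.02, with 23 of 34 positive, beside a median of -0.000198 and 49.9% positive over all genes tested. The libraries varied more than in the pituitary: the median coefficient of variation of the members was 11.4% in iWAT libraries labelled KO and 15.6% in those labelled WT, beside 5.68% in pituitary libraries labelled KO and 6.67% in those labelled WT.

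Creld2 had the smallest p of the members in iWAT. It had 16.8, 16.0, 15.3, 18.5 and 18.9 CPM in libraries labelled KO, against 18.7, 13.7, 11.6, 13.8 and 15.0 CPM in those labelled WT (log2 fold change 0.23, SE 0.13, edgeR adjusted p = 0.99995). Here the WT library of mouse 33 lay within the KO range, and the other 4 WT libraries were below every KO library. Dnajb9 had 23.5, 38.0, 29.3, 56.4 and 25.3 CPM in libraries labelled KO, against 25.0, 31.9, 24.6, 38.5 and 30.6 CPM in those labelled WT. The KO library of mouse 50 was alone above all the WT libraries (log2 fold change 0.19, SE 0.24, edgeR adjusted p = 0.99995), and without it the value was -0.05.

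Pdia4 had 127, 153, 117, 168 and 127 CPM in iWAT libraries labelled KO, against 163, 114, 101, 133 and 129 CPM in those labelled WT (log2 fold change 0.11, SE 0.14, edgeR adjusted p = 0.99995). Rcn2 had 27.9, 27.8, 26.6, 33.3 and 30.8 CPM in libraries labelled KO, against 36.4, 30.3, 28.2, 30.9 and 28.4 CPM in those labelled WT (log2 fold change -0.08, SE 0.097, edgeR adjusted p = 0.99995). Both pairs of groups overlapped over most of their range. Rcn1, the member called in the pituitary, had 37.1, 34.3, 30.3, 28.8 and 34.4 CPM in iWAT libraries labelled KO, against 42.3, 33.2, 25.8, 31.5 and 22.6 CPM in those labelled WT. The KO libraries lay inside the WT range (log2 fold change 0.09, SE 0.16, 95% interval -0.23 to 0.40, edgeR adjusted p = 0.99995).

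The difference of the KO effects, iWAT minus pituitary, was tested in 1 fit over all 20 libraries. Of the 34 members 0 passed, as did 0% of the 17731 genes tested by edgeR, and DESeq2 and limma voom called 0 members. Rcn1 was the single member at an unadjusted p under 0.05, with a log2 difference of -0.48 (SE 0.18; edgeR adjusted p = 0.99997), and 2.41% of all genes were below 0.05. The effect of the label on Rcn1 was therefore not shown to differ between the tissues after adjustment.

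Single libraries moved many members at once in iWAT. The WT library of mouse 33 was the highest of its group for 21 of the 34 members, with a median deviation of 0.24 on the log2 scale from the group's mean. In the pituitary the library of mouse 33 was the highest WT library for 10 members and the lowest for 8, with a median deviation of 0.01. The WT pituitary library of mouse 48 was also the highest for 10. In iWAT the KO library of mouse 50 was the highest of its group for 17 members and the lowest for 10. It was high for Dnajb9 and Derl3 and low for Sdf2l1. That library had a summed level of lymph node markers of 24.9 CPM, against 694 to 1562 CPM in the other iWAT libraries labelled KO and 371 to 1525 CPM in those labelled WT, and the highest level of fat cell markers, 19206 CPM, and of blood markers, 7142 CPM. The WT library of mouse 33 had 863 CPM of lymph node markers, 14785 CPM of fat cell markers, the highest of its group, 117 CPM of plasma cell markers, the lowest, and 10533 CPM of fibroblast markers, where WT libraries ranged between 3141 and 11550 CPM. The plasma cell marker Mzb1 did not follow the plasma cell sum. It had 7.17 CPM in the WT library of mouse 33, above those of mice 34 (6.09 CPM) and 49 (3.47 CPM). It was below those of mice 48 (13.0 CPM) and 56 (12.6 CPM). The part of these cell types in the members' levels was not tested. Without the WT library of mouse 33, the members' median log2 fold change in iWAT was 0.09, with 27 of 34 positive, 0 called and 2 at an unadjusted p under 0.05.

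**Figure D3:**
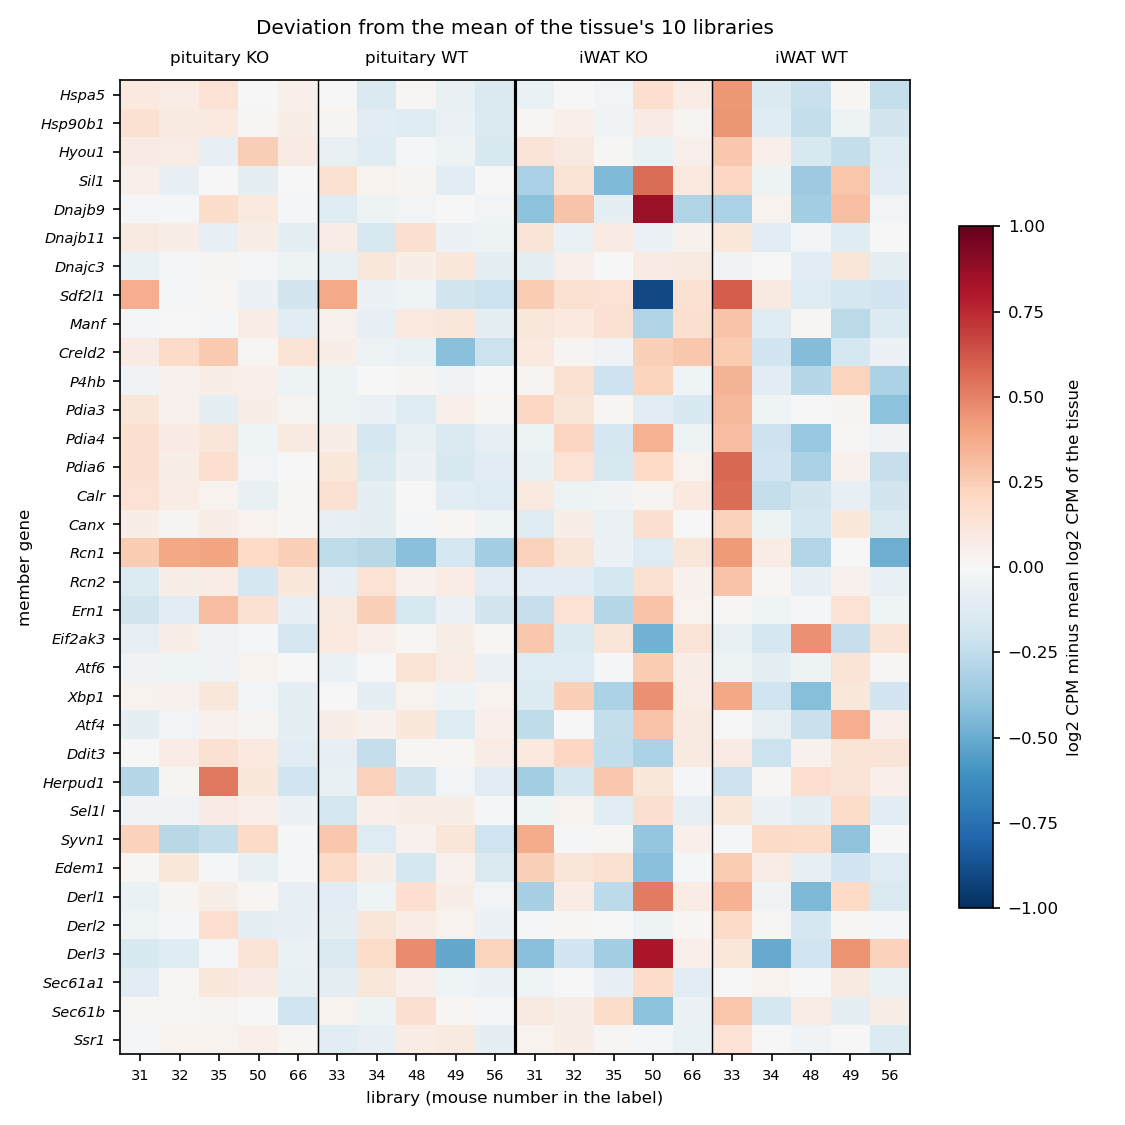
Deviation of each member (rows, in the order of their roles) in each of the 20 libraries (columns, by the mouse number in the label) from its mean log2 CPM over the 10 libraries of that tissue, in colour from -1 (blue) to 1 (red). Rcn1 separates the pituitary libraries labelled KO from those labelled WT, and the columns of WT 33 and KO 50 stand out in iWAT.

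Between the tissues the members differed far more than between the genotype labels. In WT libraries, 30 of the 34 were called between the pituitary and iWAT: 27 were higher in the pituitary, as were 40.2% of the 17023 genes tested, and 3 were lower, as were 38.9% of the genes. The members' median log2 fold change was 0.70, against 0.01 over all genes. The 5 pituitary libraries lay above the 5 iWAT libraries for 25 members (36.2% of all genes) and below them for 1 (33.2% of all genes). The same test in the libraries labelled KO called 26 members higher (37.3% of genes) and 4 lower (37.8% of genes), and 29 members were called in both. Since the tissues differ in cell types, fewer cells of a secretory type and less RNA per cell cannot be told apart here either.

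**Figure D4:**
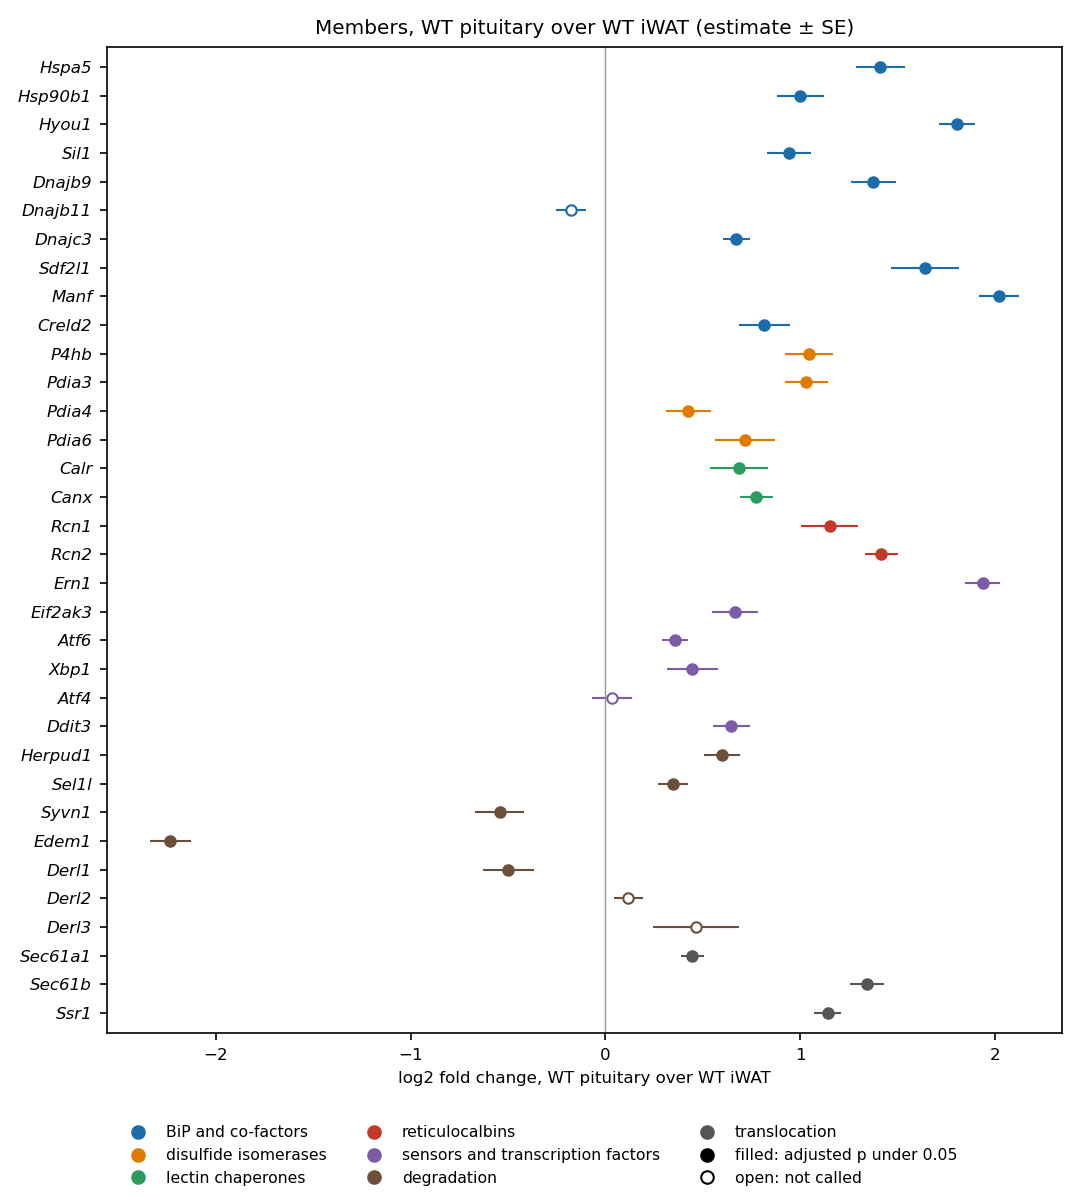
Log2 fold change (x axis, WT pituitary over WT iWAT) of each member (rows, coloured by role). Points are edgeR estimates and bars are ± 1 SE, with 5 libraries in each tissue. Most points lie right of 0, with Manf at 2.02, and Edem1, Syvn1 and Derl1 are the 3 filled points left of it.

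Levels in the comparison of tissues were scaled over the 10 WT libraries together, so they differ slightly from those given above. The 4 members with the largest positive fold changes were Manf, Ern1, Hyou1 and Sdf2l1. Manf (mm10 chr9:106887415-106891938, minus strand) had 115, 105, 119, 119 and 104 CPM in WT pituitary libraries, against 34.3, 26.0, 28.7, 23.6 and 25.8 CPM in WT iWAT libraries, a 4.06-fold higher level (log2 fold change 2.02, SE 0.10, edgeR adjusted p = 8.95e-09). Ern1, which encodes the sensor IRE1 that splices Xbp1 mRNA, had 163, 181, 137, 146 and 136 CPM in the pituitary, against 39.6, 38.3, 39.2, 43.7 and 38.4 CPM in iWAT (log2 fold change 1.94, SE 0.090, edgeR adjusted p = 5.00e-09). For both genes every pituitary library lay above every iWAT library, and the iWAT libraries were close to each other for Ern1. Hyou1 had 327, 316, 341, 328 and 309.6 CPM in the pituitary, against 114, 97.9, 84.9, 80.6 and 87.2 CPM in iWAT (log2 fold change 1.81, SE 0.093, edgeR adjusted p = 1.13e-08). Sdf2l1 had 32.0, 23.6, 23.9, 21.5 and 21.3 CPM in the pituitary, against 11.3, 7.90, 6.81, 6.66 and 6.53 CPM in iWAT (log2 fold change 1.64, SE 0.17, edgeR adjusted p = 4.34e-06). For Sdf2l1 the library of mouse 33 was the highest in each tissue.

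The 3 members called lower in the pituitary all act in degradation. Edem1 (mm10 chr6:108828641-108859356, plus strand), which encodes a mannosidase-like protein that directs misfolded glycoproteins to degradation, had 44.9, 41.0, 34.8, 40.2 and 35.6 CPM in WT pituitary libraries, against 220.3, 195, 175, 163 and 170.2 CPM in WT iWAT libraries. Each iWAT library exceeded each pituitary library by a wide gap, and the level in iWAT was 4.70-fold that in the pituitary (log2 fold change -2.23, SE 0.10, edgeR adjusted p = 4.88e-09). Syvn1, which encodes the ubiquitin ligase HRD1, had 50.9, 38.8, 43.7, 45.6 and 36.9 CPM in the pituitary, against 61.7, 71.5, 71.3, 47.5 and 62.7 CPM in iWAT (log2 fold change -0.54, SE 0.12, edgeR adjusted p = 0.00178). Derl1, which encodes the channel protein derlin-1, had 134, 140.3, 163, 149 and 142 CPM in the pituitary, against 259, 199, 149.95, 236 and 186 CPM in iWAT (log2 fold change -0.50, SE 0.13, edgeR adjusted p = 0.00461). The ranges of Syvn1 and Derl1 overlapped between the tissues. The exons of Syvn1 share 89 bases with Mrpl49, so its counts are uncertain.

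**Figure D5:**
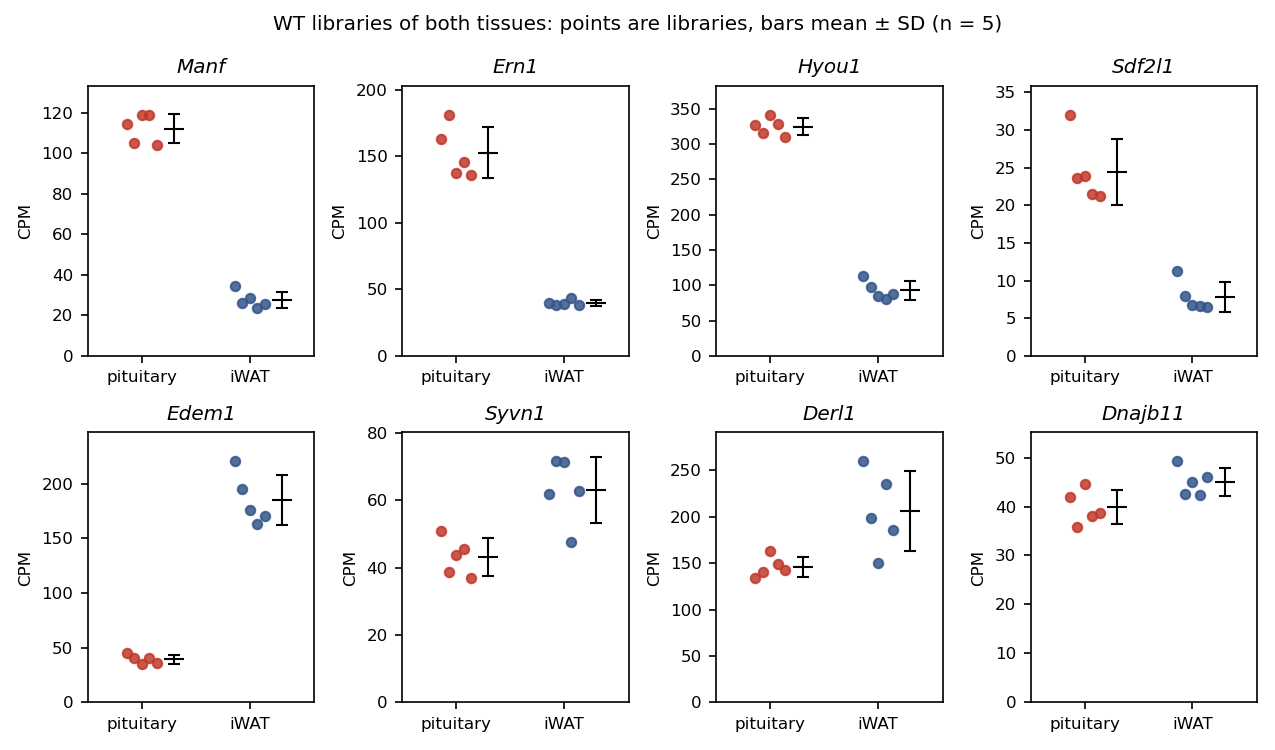
TMM-scaled counts, in CPM (y axis, linear from 0) of the 4 members with the largest and the 4 with the smallest tissue log2 fold change, in WT pituitary libraries on the left of each panel and WT iWAT libraries on the right. Points are libraries and bars are the mean ± SD of 5. Manf, Ern1, Hyou1 and Sdf2l1 are higher in every pituitary library, Edem1 is lower in every one (34.8 to 44.9 against 163 to 220 CPM), and Syvn1, Derl1 and Dnajb11 overlap.

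The remaining degradation genes were split. Herpud1 (log2 fold change 0.60) and Sel1l (0.35), which holds HRD1 in its complex, were higher in the pituitary, and the derlins Derl2 (0.12, edgeR adjusted p = 0.166) and Derl3 (0.47, edgeR adjusted p = 0.0747) were not called. Derl2 shares 231 exon bases with Mis12. Dnajb11 was the single member of the BiP group that was not called in WT libraries: it had 42.0, 35.8, 44.6, 38.1 and 38.6 CPM in the pituitary, against 49.2, 42.6, 45.0, 42.3 and 46.1 CPM in iWAT (log2 fold change -0.18, SE 0.077, edgeR adjusted p = 0.0528). It was called lower in the pituitary in the libraries labelled KO (log2 fold change -0.26, edgeR adjusted p = 0.00719) and by DESeq2 in WT libraries (adjusted p = 0.0306). The other 9 members of that group were called higher, with log2 fold changes between 0.67 (Dnajc3) and 2.02 (Manf).

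Hspa5 had 765, 691, 769, 718 and 693 CPM in WT pituitary libraries, against 369.98, 248, 235, 279 and 234 CPM in WT iWAT libraries (log2 fold change 1.41, SE 0.13, edgeR adjusted p = 8.76e-07). Every pituitary library was above every iWAT library. The 4 disulfide isomerases were called higher, from 0.43 (Pdia4) to 1.05 (P4hb), as were the lectin chaperones Calr (0.69) and Canx (0.77). The reticulocalbins Rcn1 (1.15) and Rcn2 (1.42) and the translocation genes Sec61a1 (0.45), Ssr1 (1.14) and Sec61b (1.34) were called higher too. Of the 6 sensors and transcription factors 5 were higher: Atf6 (0.36), Xbp1 (0.45), Ddit3 (0.65), Eif2ak3 (0.66) and Ern1. Atf4 alone of these was not called, with a log2 fold change of 0.03 (95% interval -0.16 to 0.23, edgeR adjusted p = 0.766). Xbp1 was the single member called in WT libraries but not in libraries labelled KO (log2 fold change 0.31, edgeR adjusted p = 0.0615).

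Per kilobase of counted exon length, Hspa5 was the most abundant member in the WT pituitary, with 278 ± 14.4 CPM per kb (SD, n = 5), followed by Hsp90b1 with 251 ± 12.03, P4hb with 214 ± 4.92 and Calr with 200.03 ± 17.01 CPM per kb. In WT iWAT the highest were Hsp90b1 with 126 ± 25.7 CPM per kb, Calr with 124 ± 32.2, Hspa5 with 104 ± 21.8 and P4hb with 103 ± 21.5 CPM per kb. In the pituitary the spreads (mean ± SD) of P4hb and Calr met while those of Hspa5 and Hsp90b1 did not. In iWAT the spreads of all 4 genes met, as did that of Canx (92.0 ± 11.04 CPM per kb). The genes were read in the same libraries, so spreads that meet do not settle their order. The order within each library was not compared. Derl3 was lowest in both tissues, at 4.75 ± 1.19 CPM per kb in the pituitary and 3.44 ± 0.859 CPM per kb in iWAT. Among the sensors, Ern1 stood at 38.4 ± 4.84 CPM per kb in the pituitary, against 10.0 ± 0.562 CPM per kb in iWAT. Edem1 stood at 6.71 ± 0.708 CPM per kb in the pituitary, number 33 of the 34 members from the top, and at 31.5 ± 3.94 CPM per kb in iWAT, number 16.

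Other ER genes were read from 5 lists of related function. Between libraries labelled KO and WT 0 of their genes passed in the pituitary and 0 in iWAT: 24 and 23 other folding and disulfide enzymes were tested, 18 genes of ER-associated degradation in each tissue, 21 of the translocon and signal peptidase, 17 of N-glycosylation and quality control, and 25 regulators and ATF4 targets. At an unadjusted p under 0.05 in the pituitary, 1 of the folding list was higher and 2 lower, 2 and 1 of the degradation list, 1 and 0 of the translocon list, 2 and 2 of the N-glycosylation list, and 0 and 1 of the regulators; in iWAT 1 gene, of the folding list, was lower. Over all genes tested 10.9% were under that p in the pituitary and 0.553% in iWAT. The smallest p in the pituitary were those of Mogs, a glucosidase that trims N-glycans (log2 fold change 0.26, edgeR adjusted p = 0.113) and Vcp, the ATPase that extracts degradation substrates (0.14, edgeR adjusted p = 0.122). Between the tissues in WT libraries, where 40.2% of all genes were called higher in the pituitary and 38.9% lower, 17 of the 24 other folding genes were called higher in the pituitary and 4 lower, as were 19 and 0 of the 21 translocon and signal peptidase genes and 11 and 2 of the 17 N-glycosylation genes. In the degradation list 8 were higher and 6 lower of 18, near the shares over all genes. The regulators and ATF4 targets went mostly the other way, with 4 higher and 14 lower of 25. The lower ones included the serine synthesis genes Phgdh (log2 fold change -2.52) and Psat1 (-2.33), which are known ATF4 targets. Asns, Shmt2 and Mthfd2 of the same list did not show such a difference. They had 56.8, 22.2 and 16.6 CPM in WT pituitary, against 59.6, 21.9 and 12.9 CPM in WT iWAT (scaled within each tissue). Creb3l2, a membrane-bound factor that induces secretory genes, was higher in the pituitary (1.9997).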

How the data were processed

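The deposited files hold raw read counts per gene for each of 20 libraries, in the unit of whole-number counts made by the authors with featureCounts 1.4.4, per the file headers and the submitters' processing notes, after alignment with STAR 2.4.0 to mm10 (GRCm38), per the submitters' processing notes. Counting took primary alignments, used no strand option and let a read count for every gene it overlaps, per the file headers, so reads over shared exon bases enter both genes. Genotype, tissue and mouse number came from the labels.

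Each tissue was fitted alone in edgeR 4.0.16 (R 4.3.3) with filterByExpr, TMM scaling and the robust quasi-likelihood test over all genes, Benjamini-Hochberg adjustment and a threshold of 0.05. The fits tested 16389 genes in the pituitary, 16105 in iWAT, 17731 for the difference between the tissues and 17023 between WT tissues. Each SE was derived from the log2 fold change and the F statistic of the edgeR test. The 95% intervals took a normal distribution, so they are narrower than the test implies. For Derl3 between WT tissues the interval was 0.029 to 0.90, while its unadjusted edgeR p was 0.0607. Printed CPM use TMM-scaled library sizes; CPM per kb divides by the counted exon length. DESeq2 1.42.0 and limma 3.58.1 (voom with quality weights) were alternatives, as were other scalings, filters, covariates, age subsets and leaving out each library. The fits were also run on simulated counts, drawn without age effects or libraries that stand apart. That run does not show how the fits behave with such libraries. The 34 members, the gene lists and the marker lists were chosen with earlier results of these data known. Described in full were the members past the threshold in a KO and WT comparison, the 6 with the smallest p in the pituitary and the 4 in iWAT, the most abundant per kb, and the 4 largest and 4 smallest tissue fold changes. Rcn3, Mogs, Vcp, Phgdh, Psat1, Asns, Shmt2, Mthfd2 and Creb3l2 of the other lists, and Herpud1 and Xbp1, were named after their values were seen. Of the symbols in the lists 3 were not found. Counts of replicate libraries differed by more than sampling noise in every pair (lowest reduced chi-square 4.70). The biological coefficient of variation was 0.101 in the pituitary and 0.307 in iWAT.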

Additional observations from a re-analysis of the deposited data

Results flagged for a closer look

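A library was singled out where its gap to the nearest library of its group exceeded 0.71 of the group's range. This held in 9 of 136 groups of 5 libraries, where chance alone gives about 1 in 20. The count was near that share, so single flags may be chance. The gaps were judged on log2(CPM + 0.5). Of the 9, 4 concerned the libraries of mice 33 (WT) and 50 (KO) in iWAT. Hsp90b1 had 453 CPM in iWAT of WT mouse 33, where the nearest library had 322 CPM. Calr had 339 CPM in the same library, where the nearest had 218 CPM. Sdf2l1 had 3.81 CPM in iWAT of KO mouse 50, where the nearest library had 7.88 CPM, and Manf had 22.1 CPM there, where the nearest had 29.1 CPM.

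In the pituitary, Sdf2l1 stood high at 32.9 CPM in WT mouse 33 (nearest 24.6 CPM), Atf4 low at 101.2 CPM in WT mouse 49 (nearest 113 CPM) and Sec61b low at 58.2 CPM in KO mouse 66 (nearest 66.5 CPM). In iWAT, Ddit3 stood low at 10.4 CPM in WT mouse 34 (nearest 12.4 CPM) and Ern1 high at 41.8 CPM in WT mouse 49 (nearest 38.1 CPM). The gaps of Ern1 (0.7101 of the range) and of Sdf2l1 in the pituitary (0.7104) barely passed the limit. Among these flags the library of mouse 33 was high for Sdf2l1 in the pituitary and for Hsp90b1 and Calr in iWAT.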

How the results depend on the processing

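In the pituitary the count of members called between libraries labelled KO and WT was 1 in the main test, 2 by DESeq2, 2 by limma voom and 0 in 1 fit over all 20 libraries, where Rcn1 had a log2 fold change of 0.59 (edgeR adjusted p = 0.372). Leaving out each library gave 1 to 2, the 2 without the WT library of mouse 33. Over all genes the pituitary count of 90 became 288 by DESeq2, 44 with age as a covariate, 5 in mice of 21 weeks, 1 in the fit over all 20 libraries, 53 with the hormone score and 8 with the intermediate lobe score (a score chosen after seeing the data, as was the macrophage score), and 50 to 112 without each library; it was 55 without KO mouse 32, 50 without WT mouse 49 and 51 without WT mouse 56. Without WT mouse 56 the members' median was -6.8e-05, with 17 of 34 positive. Klf14 in the pituitary had 1.04 in mice of 21 weeks (edgeR adjusted p = 0.0627) and 1.004 in the fit over all 20 libraries (edgeR adjusted p = 1). In iWAT Klf14 had -0.10 at 21 weeks. Dnajb9 in iWAT had -0.034 by limma voom, -0.018 with the lymph node score and -0.055 to 0.31 without each library (-0.055 without KO mouse 50), and Pdia4 -0.080 at 21 weeks; 0 members were called in iWAT in all 20 alternatives. For the difference between the tissues 0 members were called in all 19 alternatives, and DESeq2 called 1 gene. The cause of these shifts was not tested. Between WT tissues leaving out each library gave 29 to 31 members. Dnajb11 was called lower in the pituitary in 5 of 13 alternatives, with log2 fold changes of -0.26 to -0.18: with RLE scaling (edgeR adjusted p = 0.0448), without the 20 most abundant genes (edgeR adjusted p = 0.0469), by DESeq2 (adjusted p = 0.0306), without WT mouse 48 (edgeR adjusted p = 0.0315) and in the libraries labelled KO.

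With the mouse number as a replicate block, 30 members were called between WT tissues and 0 for the difference of the KO effects, where Rcn1 had -0.45. Libraries of the same mouse number correlated in their deviations from the group means at -0.0704 to 0.118, over 0.1 in 1 of 10 pairs. Each pituitary library was also compared with the 5 iWAT libraries of its genotype label only. In 5 of the 10 mice it was closest to that of its own number.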
